A study of Homo sapiens with 9 samples.

Results

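The replication-dependent histone genes were followed in NT2 cells treated with an organophosphate. Their members were all probes of the array, control spots aside, whose gene symbol started with HIST1H, HIST2H, HIST3H or HIST4H. There were 80 such probes of 68 genes among 42405 probes of 34623 gene names, 63 in the large HIST1 cluster of chromosome 6, 13 in HIST2 and 3 in HIST3, both on chromosome 1 (the probes of HIST2H2BA and HIST2H4A have no position in the files), and 1 in HIST4 on chromosome 12. By subtype, 6 probes measured linker histone H1, 18 H2A, 23 H2B, 14 H3 and 19 H4.

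NT2 is a line of human embryonal carcinoma cells that turn towards neurons in retinoic acid. All cultures were kept for 4 days (96 h) in medium with 10 μM retinoic acid and 10% fetal bovine serum, and either received no organophosphate (control) or were given paraoxon at 1 μM or mipafox at 5 μM. Both compounds inhibit serine esterases, and the comparison asked whether either one altered gene expression early in the retinoic acid response. Each treatment had 3 one-colour arrays lettered A, B and C, which the labels describe as biological and the methods as technical replicates, so that p-values measure only the spread between these arrays. Slide 1 held control A, B and C and mipafox A, and slide 2 held paraoxon A, B and C and mipafox B and C, so paraoxon and control shared no slide. Of the markers of the line and of other cell types, 9 of 9 probes of embryonal carcinoma genes were well above background in at least 1 treatment, beside 10 of 12 of neural genes, 1 of 6 of astrocyte genes, 3 of 5 of fibroblast genes, 3 of 7 of blood genes and 3 of 5 of endothelial genes.

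A nucleosome is built from H2A, H2B, H3 and H4, with H1 bound where the DNA enters and leaves. The genes for these proteins lie in clusters, are transcribed mainly in S phase, and mostly give short mRNAs without introns that end in a conserved stem-loop in place of a poly(A) tail. The stem-loop is bound by SLBP, and the transcript is cut behind it with the help of the U7 small nuclear ribonucleoprotein. A few of these genes are also known to give longer, spliced or read-through transcripts with a poly(A) tail in cells that leave the cycle. The labelling reaction used here started from total RNA with the Quick Amp kit, whose first strand is primed from oligo(dT).

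The probes were placed on both kinds of transcript. The stem-loop element itself was present in full in 6 of the 80 probe sequences and by its first 9 bases, GGCTCTTTT or GGCCCTTTT, in 2 more, against 22 of 42325 other probes (0.052%). The stretches below are shown because they carry the 16-base stem-loop, in capitals, at the end of a message without a tail. They are written 5′ to 3′ in the sense of the transcript, with coordinates of the deposited files on hg19.
HIST1H2AI, chr6:27776415-27776444, plus strand: aggaaccaaaGGCTCTTTTCAGAGCCacct
HIST1H2BE, chr6:26184428-26184457, plus strand: taaacccaaaGGCTCTTTTCAGAGCCactc
HIST1H2BF, chr6:26200183-26200212, plus strand: acccaatcccaaaGGCTCTTTTAAGAGCCa
HIST1H3H, chr6:27778284-27778313, plus strand: catacccaaaGGCTCTTTTCAGAGCCaccc
HIST1H4K, chr6:27798954-27798983, minus strand: ctatcaacaaaaGGCCCTTTTTAGGGCCcc
HIST2H3A, chr1:149824656-149824685, plus strand: cgtatccaaaaGGCTCTTTTCAGAGCCacc

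Other probes lay elsewhere in the message. The pair of HIST1H2AC and the pair of HIST1H2BK below are shown because, in each gene, one probe lay in the coding sequence and the other 14.4 kb and 8.2 kb further downstream, in a longer transcript. The first carries the start codon in capitals, and of each downstream probe only the first 30 bases are given.
HIST1H2AC, coding, chr6:26124461-26124520, plus strand: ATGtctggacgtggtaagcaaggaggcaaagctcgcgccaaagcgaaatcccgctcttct
HIST1H2AC, downstream, chr6:26138822-26138851, plus strand: gcattatgcaaatgcattatattttatgta
HIST1H2BK, coding, chr6:27114437-27114496, minus strand: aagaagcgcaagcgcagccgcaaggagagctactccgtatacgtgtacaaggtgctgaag
HIST1H2BK, downstream, chr6:27106221-27106250, minus strand: ggtccattccttctctctaataatcattta

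RefSeq promoters (GRCh38.p14, 250 bases before to 50 after the start) were matched for 61 of the 68 genes. TATAAA stood on either strand in 40 of these 61 (65.6%), against 12% of all promoters, and CCAAT in 52 (85.2%), against 35.7%. The octamer ATTTGCAT, a known element of H2B promoters, was found in 14 of 18 H2B promoters and 10 of 14 H2A promoters but in 1 of 11 for H3 and in none of the 6 for H1 or 12 for H4, against 1.8% of all promoters. All the H1, H2A, H2B and H3 promoters matched held CCAAT, and 3 of 12 H4 promoters did. These matches describe letters in a window and not sites.

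Levels are given as log2 of the processed signal minus the array's 75th percentile. Tests took the probes that the scanner software placed well above background on all 3 arrays of a treatment, which were 74 of the 80 histone probes, of 65 genes, and 29134 probes in all. The 6 others were HIST1H2BA, an H2B known from testis, HIST2H2BA, HIST2H4A, the downstream probe of HIST2H2BE and 2 of the 3 probes of HIST2H2BF. No histone probe was saturated on any array and none of its spots was marked as an outlier. Histone genes of one subtype are near copies of each other, so a probe may also take up transcripts of its relatives, and in bulk RNA fewer cells in S phase and less mRNA per cell cannot be told apart.

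The histone probes moved together from array to array, also between arrays of the same treatment. Set against the mean of the control arrays, the median over the 74 probes was 0.67 on control A, -0.03 on control B and -0.65 on control C on the log2 scale. In the paraoxon group it was -0.54 for A, -1.43 for B and 0.18 for C, and in the mipafox group 0.45 for A, -0.07 for B and -1.69 for C. On control C and on mipafox C 72 of the 74 probes lay below the control mean (62.5% and 58.5% of all probes) and on paraoxon B 68 (51.4% of all), while on control A 3 did (38.8% of all). High and low arrays thus occurred in every treatment and on both slides, and the pooled within-treatment SD of this median was 0.88.

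**Figure D1:**
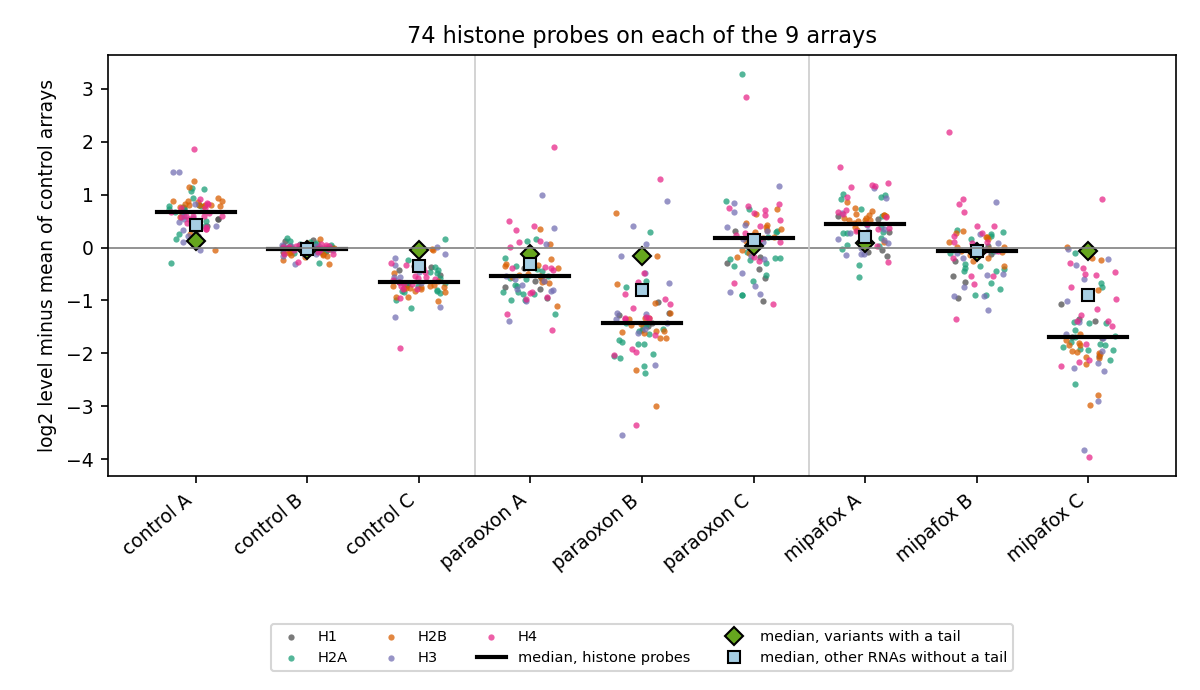
Each point is 1 of 74 histone probes on 1 array, as log2 level minus the mean of the 3 control arrays, coloured by subtype; black bars are medians over the histone probes, diamonds and squares are medians over 16 probes of tailed histone variants and 40 probes of other RNAs without a tail. The bars run from 0.67 on control A to -1.69 on mipafox C, the squares follow them, and the diamonds stay between -0.17 and 0.13.

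The order of the arrays was the same for most histone probes. Control A was the highest and control C the lowest control array for 70 of the 74 probes, against 33.2% of all probes. Paraoxon C was highest and paraoxon B lowest for 68 (31% of all), and mipafox A highest and mipafox C lowest for 70 (35.7% of all). All of these held at once for 64 histone probes and for 7.35% of all probes. Each array's 75th percentile was subtracted from these levels, and in each treatment it was lowest on the array where the histone probes were highest. The processed signal at that percentile was 1000.4 on control A, 818.3 on paraoxon C and 802.1 on mipafox A. On the other arrays it lay between 1128.6 and 1589.6. The order is thus that of scaled levels, and the order without this scaling was not tested. Within a treatment, the highest array exceeded the lowest by a median factor of 2.46 in control, 2.77 in paraoxon and 4.38 in mipafox.

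The spread of a probe was summarised as its pooled within-treatment SD. Its median was 0.86 over the histone probes and 0.25 over all tested probes, and 60 of the 74 histone probes exceeded 0.51, the 90th percentile of all. The correlation of each probe's deviations from its treatment means with the median deviation of the other histone genes, over the 9 arrays, had a median of 0.985 and was above 0.9 for 64 probes. It is a description only, since all points of an array share 1 labelling reaction. Over all tested probes the median correlation with the histone median was 0.331, and 28.4% exceeded 0.7, which 71 of the histone probes did. The median SD was 0.61 for H1, 0.89 for H2A, 1.00 for H2B, 0.69 for H3 and 0.80 for H4.

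**Figure D2:**
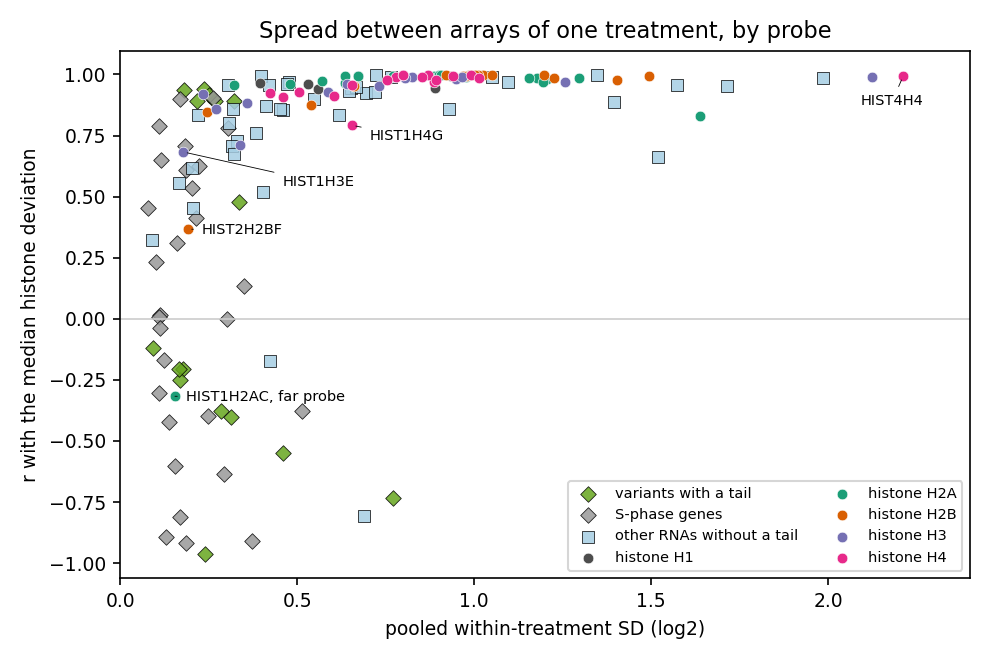
Each point is 1 probe: the x axis is its pooled within-treatment SD on the log2 scale and the y axis the correlation of its deviations over 9 arrays with the median deviation of the histone probes (of the other histone genes, for a histone). Histone probes, as circles, lie mostly at the upper right, with HIST4H4 at 2.21, while tailed variants and S-phase genes, as diamonds, lie mostly at low spread and at correlations of either sign, and other RNAs without a tail are squares.

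HIST4H4, the lone H4 gene of chromosome 12 (chr12:14924006-14924065), had an SD of 2.21 as measured. Its level was -2.96, -4.77 and -6.70 in control A, B and C, -6.07, -8.16 and -4.28 in paraoxon A, B and C, and -3.66, -4.60 and -8.77 in mipafox A, B and C. It was well above background on 7 of the 9 arrays but not on paraoxon B and mipafox C, its lowest, so this spread rests on values that were not well above background. HIST2H3A, an H3 gene of chromosome 1 whose probe holds the stem-loop, was at 4.86, 3.31 and 2.11 in control, 2.42, -0.13 and 4.27 in paraoxon and 4.55, 3.47 and -0.40 in mipafox, all well above background, with an SD of 2.12. Both were highest on control A and lowest on mipafox C. The 8 probes with at least the first 9 bases of the stem-loop had a median SD of 1.24, from 0.67 for HIST1H2AI to 2.12 for HIST2H3A, beside 0.81 for the other tested histone probes. In genes with another probe the order was not fixed. The stem-loop probe of HIST1H3H had an SD of 1.26 and its coding probe 0.80. For HIST1H4A the probe with the first 9 bases had 0.89 and the other probe 0.78, whereas for HIST1H4K the stem-loop probe had 0.75 and the coding probe 0.80.

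In HIST1H2AC and HIST1H2BK, the downstream probe varied less than the coding probe. Probes of one gene could also differ in spread without such a distance, as those of HIST1H3H above did. The coding probe of HIST1H2AC, an H2A gene, was at 0.93, 0.28 and -0.62 in control A, B and C, -0.50, -2.17 and -0.16 in paraoxon and 0.59, -0.15 and -2.38 in mipafox. The downstream probe of the same gene was at -4.13, -3.73 and -3.68 in control, -3.68, -3.55 and -3.64 in paraoxon and -3.82, -3.90 and -3.95 in mipafox. The coding probe was thus far lower on paraoxon B and mipafox C than on any control array, and the downstream probe was on no exposed array below its lowest control array. Their SDs were 1.18 and 0.15, their correlations with the other histones 0.987 and -0.317, and another probe of the gene, which ends at the start codon, had an SD of 1.20.

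HIST1H2BK, an H2B gene, showed the same contrast in spread but not in correlation. Its coding probe was at 1.19, 0.36 and -0.37 in control, -0.16, -1.20 and 0.28 in paraoxon and 0.91, 0.05 and -1.69 in mipafox, with an SD of 0.99. Its downstream probe was at -1.41, -1.28 and -1.41 in control, -1.31, -1.52 and -0.98 in paraoxon and -1.03, -1.09 and -1.61 in mipafox, with an SD of 0.25. The correlations with the other histones were 0.996 for the coding and 0.848 for the downstream probe, which thus followed the shared shift at a smaller size. The downstream probe of HIST2H2BE, another such gene, was not well above background on any array, and its coding probe had an SD of 0.54. The other genes known for tailed transcripts had coding probes only, and these varied like the rest: the SD was 0.93 for HIST1H1C, a linker histone, and 0.99 for HIST1H2BD. Whether the type of transcript accounts for these contrasts was not tested.

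**Figure D3:**
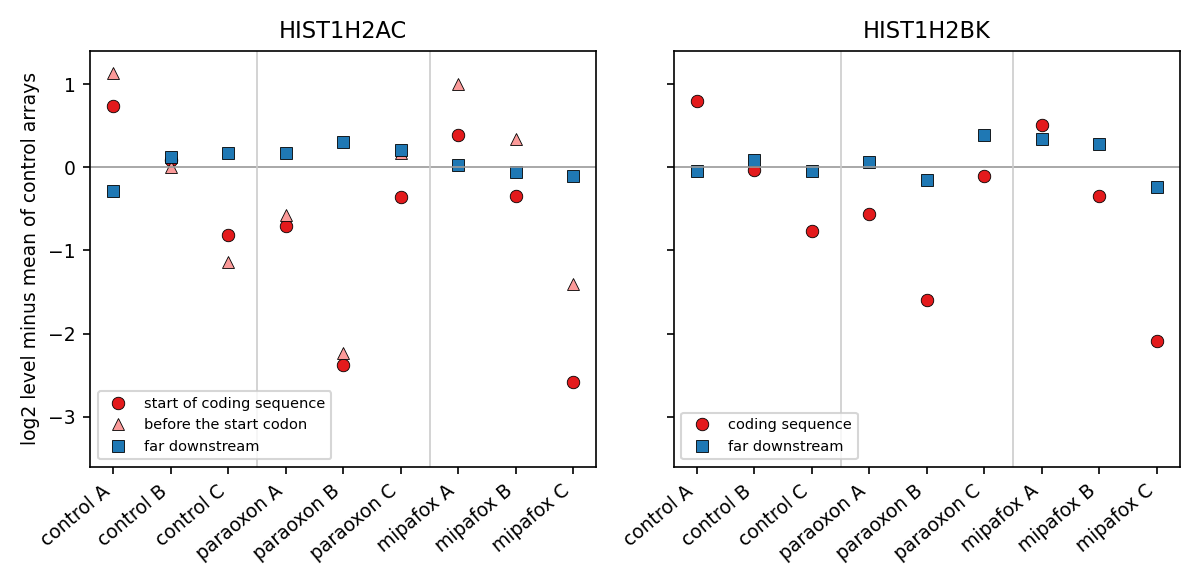
Level of each probe of HIST1H2AC (left) and HIST1H2BK (right) on the 9 arrays, as log2 level minus the mean of the 3 control arrays of that probe. Probes in or before the coding sequence (circles, triangle) are low on paraoxon B and mipafox C, and the downstream probes (squares) stay near 0 on all arrays.

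A few other histone probes also varied little. HIST1H3E, an H3 gene of the main cluster (chr6:26225566-26225625), was at 3.88, 3.96 and 3.94 in control, 4.30, 4.34 and 4.36 in paraoxon and 4.27, 4.18 and 3.71 in mipafox, with an SD of 0.18. HIST3H3, an H3 gene known from testis, had an SD of 0.23, HIST1H3A 0.27 and HIST1H3J 0.34. Their correlations with the other histones were 0.92, 0.858 and 0.711, and that of HIST1H3E was 0.683. The tested probe of HIST2H2BF, an H2B gene of chromosome 1, had an SD of 0.19 and a correlation of 0.367. No H1 probe had an SD under 0.39 and no H4 probe one under 0.42.

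Other transcripts of the same biology were measured beside them. The 16 probes of 11 replication-independent variants, whose mRNAs carry a tail, had a median SD of 0.24, and their correlations with the histones went both ways: 6 of 16 probes, of H3F3A, H2AFV, H2AFJ and H2AFY, exceeded 0.7, CENPA was lowest at -0.962, and the median was -0.162. The 29 probes of S-phase genes (PCNA, MCM2 and the like) had a median SD of 0.17 and a median correlation of 0.015. Of these, 5 exceeded 0.7 and 4 lay below -0.7. The highest was MCM7 at 0.905, with its other probe at 0.136, and the lowest was PCNA at -0.919 and -0.911. The 30 probes of genes for histone transcription and 3′ processing, SLBP and NPAT among them, had values of 0.21 and 0.067. Here 10 exceeded 0.7 and 6 lay below -0.7, with a probe of SNRPE at 0.927 and SNRPF at 0.907, and SLBP at -0.958 and NPAT at -0.849. The 40 tested probes of small nucleolar and Cajal body RNAs and of RMRP, RPPH1, RN7SK and TERC, which have no mature poly(A) tail, had a median SD of 0.47 and a median correlation of 0.879, and 31 of them exceeded 0.7. Their median deviation was 0.43, -0.03 and -0.36 in control A, B and C, -0.31, -0.81 and 0.15 in paraoxon and 0.19, -0.07 and -0.90 in mipafox, which is the order of the histone probes. None of these lists held a call. At an unadjusted p under 0.05 with paraoxon, where 6.02% of all probes were lower and 7.31% higher, 1 of 16 variant probes, 3 of 30 for processing genes, 2 of 29 for S-phase genes and 3 of 40 for RNAs without a tail were lower and 1 S-phase probe was higher. The median log2 fold change with paraoxon was -0.09 for the variants, 0.05 for the processing genes, -0.08 for the S-phase genes and -0.33 for the RNAs without a tail.

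Against this spread, limma called no histone probe in any comparison with both limits of the study's methods (adjusted p below 0.05, log2 fold change past 1), and called 0% of all probes in each. The smallest adjusted p of a histone probe was 0.101 for paraoxon and 0.473 for mipafox. With paraoxon 60 of the 74 probes were lower than in control, where 48.1% of all probes were, and the median log2 fold change was -0.57 beside 0.01 for all probes. At an unadjusted p under 0.05, 9 histone probes were lower and 4 higher, beside 6.02% and 7.31% of all probes, and with the fold limit added 7 in either direction (2.19% of all). The 3 paraoxon arrays all lay below the 3 control arrays for 11 histone probes and above them for 5, while 11.1% and 12.4% of all probes did so. With mipafox 60 of 74 were lower, beside 49.8% of all, with a median of -0.43. At an unadjusted p under 0.05, 6 were lower and 1 higher (4% and 2.96% of all), with the fold limit added 5 in either direction (0.844% of all), and the arrays did not overlap for 1 lower and 1 higher probe (6.46% and 5.32% of all). Paraoxon and mipafox share the control arrays and were given at different doses, and between them 0 histone probes were lower and 2 higher at an unadjusted p under 0.05 (1.15% and 2.87% of all), with a median of -0.17. With array weights, limma called 5 histone probes for paraoxon (2.3% of all probes) and 2 for mipafox (2.75% of all). The weights were highest for control B (4.37), paraoxon A (3.33) and mipafox B (3.05). They were low for control A (0.39) and mipafox C (0.28), where the histone median was highest and lowest.

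The direction of the group shift changed with the slide term. With slide as a block the median for paraoxon was 0.69, with 4 of 74 probes lower, and the median for mipafox was 0.45, with 11 lower. That fit takes its slide term from mipafox alone: mipafox A on slide 1 stood 0.45 above control, and mipafox B and C on slide 2 stood 1.37 below mipafox A. Within slide 2, paraoxon was 0.27 above mipafox B and C. Leaving out mipafox A turned the paraoxon to mipafox median from -0.17 to 0.27. Without paraoxon B the paraoxon median was -0.16, and without mipafox C the mipafox median was 0.21. Treatment and slide cannot be told apart for paraoxon.

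**Figure D4:**
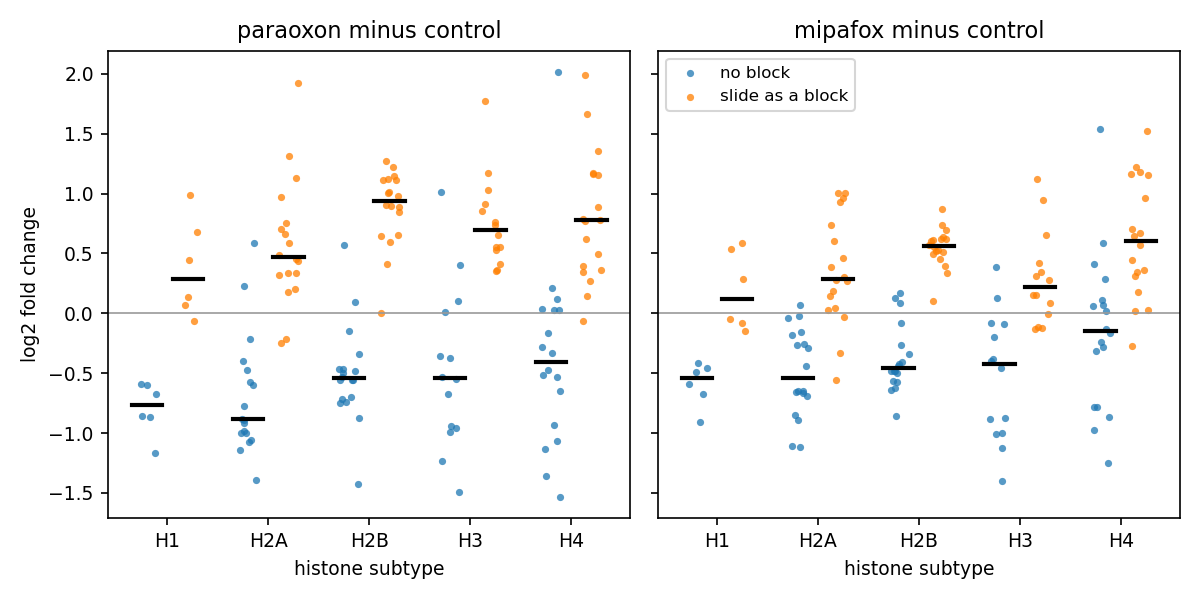
Log2 fold change of each of the 74 histone probes for paraoxon (left) and mipafox (right) against control by subtype, from limma without a block (blue) and with slide as a block (orange); black bars are medians. Without the block every subtype median is below 0, from -0.89 for H2A with paraoxon to -0.15 for H4 with mipafox, and with it every median is above 0.

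By subtype, with paraoxon the median was -0.76 for H1, -0.89 for H2A, -0.54 for H2B, -0.54 for H3 and -0.40 for H4, and each turned positive with slide as a block, to between 0.29 for H1 and 0.94 for H2B. All 6 H1 probes, 16 of 18 for H2A, 16 of 18 for H2B, 10 of 14 for H3 and 12 of 18 for H4 were lower. With mipafox the medians ran from -0.54 for H2A and H1 to -0.15 for H4, and 6, 17, 15, 12 and 10 of these probes were lower. By cluster, the paraoxon median was -0.59 over 62 probes of HIST1 and -0.43 over 8 of HIST2, where HIST2H3A was lowest at -1.24 and HIST2H2BF highest at 0.57. The 3 genes of HIST3 ran from -0.48 for HIST3H2BB to 0.01 for HIST3H3, and HIST4H4 was at -1.36. With slide as a block the cluster medians turned to 0.72 for HIST1, 0.59 for HIST2 and 0.36 for HIST3, HIST2H3A to 1.78, HIST3H2BB to 1.22 and HIST4H4 to 1.67.

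Among the linker histones, HIST1H1B, which encodes H1.5, was at 2.02, 1.64 and 1.18 in control, 0.66, 0.06 and 0.61 in paraoxon and 1.53, 0.66 and -0.08 in mipafox. All paraoxon arrays lay below all control arrays, and the log2 fold change was -1.17 ± 0.39 (SE; limma, adjusted p = 0.231) but 0.07 with slide as a block. HIST1H1D, which encodes H1.3, also stood apart with paraoxon, at -0.67 (0.14 with the block). HIST1H1C was at -0.59 (0.99 with the block), and HIST1H1T, the testis linker histone, at -0.86 (0.68 with the block), with signal well above background on 6 of the 9 arrays.

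HIST1H2AB, an H2A gene (chr6:26033461-26033520), was at 0.57, 0.43 and -0.06 in control, -0.56, -1.14 and -0.59 in paraoxon and -0.24, -0.58 and -1.57 in mipafox. It was the only histone probe whose 3 mipafox arrays all lay below the control arrays, and its paraoxon arrays did so as well. Its log2 fold change was -1.08 ± 0.34 (SE; limma, adjusted p = 0.206) with paraoxon and -1.11 ± 0.34 (adjusted p = 0.507) with mipafox, and -0.25 and -0.56 with slide as a block. HIST1H2AI followed at -1.39 with paraoxon, also without overlap, and -1.11 with mipafox, and at -0.22 and -0.33 with the block. HIST1H2AB and HIST1H4E are the genes that the study itself named from these arrays, so their direction is no independent evidence. The study listed both as lower with paraoxon, with limits on the adjusted p and the fold change. In the main fit here neither passed both limits. HIST1H2AJ, the brightest H2A probe, was at -0.89, and the coding probes of HIST1H2AC and HIST1H2BK were at -1.14 and -0.75. With slide as a block these turned to 0.49, 0.71 and 0.98. The downstream probes of HIST1H2AC and HIST1H2BK were at 0.22 and 0.10, and at 0.33 and 0.41 with the block, where they had the sign of the coding probes. Without the block, in 4 of 8 genes with several tested probes the probes differed in sign with paraoxon: these were HIST1H2AC, HIST1H2BK, HIST1H4D and HIST1H4K.

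HIST1H2AA, an H2A known from testis, was at -3.99, -4.49 and -5.51 in control, -4.55, -6.30 and -1.39 in paraoxon and -3.93, -4.45 and -6.08 in mipafox. Paraoxon C alone stood 29.98 times above paraoxon B, and the log2 fold change of 0.59 with paraoxon became -0.76 without that array. Among H2B genes, HIST1H2BF was at -1.43, HIST1H2BD at -0.71 and HIST2H2BE at -0.34 with paraoxon, and these turned to 0.65, 0.89 and 0.0021 with slide as a block. HIST2H2BF, the brightest H2B probe, was at 2.75, 2.26 and 2.46 in control and 2.83, 3.14 and 3.21 in paraoxon. The paraoxon arrays all lay above the control arrays, with a log2 fold change of 0.57 ± 0.17 (SE; limma, adjusted p = 0.184), and 0.60 with slide as a block.

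H3 genes went both ways. HIST1H3J (chr6:27858203-27858262) was at 1.32, 0.89 and 0.62 in control, 1.94, 1.83 and 2.11 in paraoxon and 1.26, 1.80 and 0.92 in mipafox. The paraoxon arrays all lay above the control arrays, with a log2 fold change of 1.02 ± 0.25 (SE; limma, adjusted p = 0.124), and 0.91 with slide as a block. HIST1H3E was at 0.41 with paraoxon, also without overlap, and 0.73 with the block. HIST1H3G was at -0.96 with paraoxon and -0.9995 with mipafox, and HIST1H3B at -1.49 and -1.40, and these turned to 0.35 and 0.41 for paraoxon with the block. HIST3H3, the brightest H3 probe, was at 0.01 and -0.08.

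H4 held the most extreme value of either sign with paraoxon. HIST1H4E was at 3.79, 3.31 and 2.87 in control, 1.77, 1.35 and 2.25 in paraoxon and 3.05, 1.97 and 1.20 in mipafox. Its paraoxon arrays lay below its control arrays, with a log2 fold change of -1.53 ± 0.45 (SE; limma, adjusted p = 0.177), and -0.06 with slide as a block. With mipafox it was at -1.25, with overlap. HIST1H4C, the brightest H4 probe, was at -0.33 with paraoxon and -0.13 with mipafox, and at 0.14 and 0.18 with slide as a block.

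HIST1H4G, whose coding sequence departs from that shared by the other H4 genes, went the other way, and its probe (chr6:26247087-26247146, minus strand) is printed for that reason.
HIST1H4G: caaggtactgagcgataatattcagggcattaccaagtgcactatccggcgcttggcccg
It was at -5.89, -6.76 and -6.81 in control, -4.58, -5.19 and -3.64 in paraoxon and -4.96, -4.30 and -5.57 in mipafox. All 6 exposed arrays lay above all control arrays, and mipafox A did so on the slide of the controls. The log2 fold change was 2.02 ± 0.45 (SE; limma, adjusted p = 0.101) with paraoxon and 1.54 ± 0.45 (adjusted p = 0.473) with mipafox, and 1.99 and 1.53 with slide as a block. The probe was dim but well above background on all 9 arrays.

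The histone probes were then set against their shared shift. For this, the median deviation of the 40 probes of other RNAs without a tail entered the fit as a covariate, an alternative chosen after the data were seen. Its values come from no histone probe, but over the arrays they correlated at 0.996 with the histone median. With such a covariate a histone median near 0 follows from the choice and says nothing about the treatments. The median log2 fold change of the histone probes was then 0.05 with paraoxon and 0.08 with mipafox, beside 0.05 and 0.03 for all probes. At an adjusted p under 0.05, 3 histone probes were lower and 4 higher with paraoxon, beside 1.12% and 3.39% of all probes, and none with mipafox, beside 0.00343% in each direction. Past the fold limit as well were 3, beside 1.76% of all probes (0.00686% for mipafox): HIST1H4G at 2.41 ± 0.26 (SE; limma, adjusted p = 0.0249), HIST1H3J at 1.19 ± 0.19 (adjusted p = 0.0339) and HIST1H4E at -1.11 ± 0.20 (adjusted p = 0.0339). The 4 others were HIST1H4K (0.73) and HIST1H4F (0.73), higher, and HIST1H2AI (-0.93) and HIST1H2AB (-0.77), lower. These calls rested on few arrays: past the fold limit none was left without any single one of control A, B or C, paraoxon A, B or C, or mipafox C, nor with slide added as a block, and 3 were called without mipafox A (3.55% of all) or mipafox B (2.05% of all). With mipafox, 6 were called without mipafox A (2.71% of all). In that fit mipafox and control shared no slide, so treatment and slide cannot be told apart there. With both the covariate and the slide block HIST1H4G was at 1.499 with paraoxon (adjusted p = 0.166) and 1.26 with mipafox (adjusted p = 0.0946).

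Relative to the median histone deviation of their own array, the same probes can be read array by array. HIST1H4G was at -0.07, -0.25 and 0.33 in control, 2.45, 2.72 and 2.67 in paraoxon and 1.08, 2.25 and 2.60 in mipafox. The stem-loop probe of HIST1H4K was at -0.07, 0.09 and -0.02 in control, 1.05, 0.78 and 0.61 in paraoxon and 0.77, 0.98 and 1.31 in mipafox. Both lay above control on every exposed array, including mipafox A on slide 1. The coding probe of HIST1H4K, in contrast, ran from -0.07 to 0.41 on the exposed arrays, so the 2 probes of this gene did not move alike. HIST1H4F was at 0.25, 0.05 and -0.30 in control and between 0.37 and 0.87 on the exposed arrays. HIST1H4E was at -0.20, 0.01 and 0.20 in control, -1.01, -0.55 and -1.24 in paraoxon and -0.72, -1.28 and -0.44 in mipafox. HIST1H2AI was between -1.07 and -0.43 on all exposed arrays and between -0.26 and 0.19 in control. HIST1H3J, on the other hand, was at -0.13 on mipafox A, within its control range of -0.29 to 0.33. Such a separation was not particular to the probes named. With paraoxon, 10 of the 74 histone probes lay above all control arrays on this scale and 11 below. With mipafox these counts were 9 and 13, and 6 and 11 did so with both compounds. The scale was computed for histone probes only, so no share over all probes stands beside these counts. These values are a description, since the histone median is part of the measure.

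**Figure D5:**
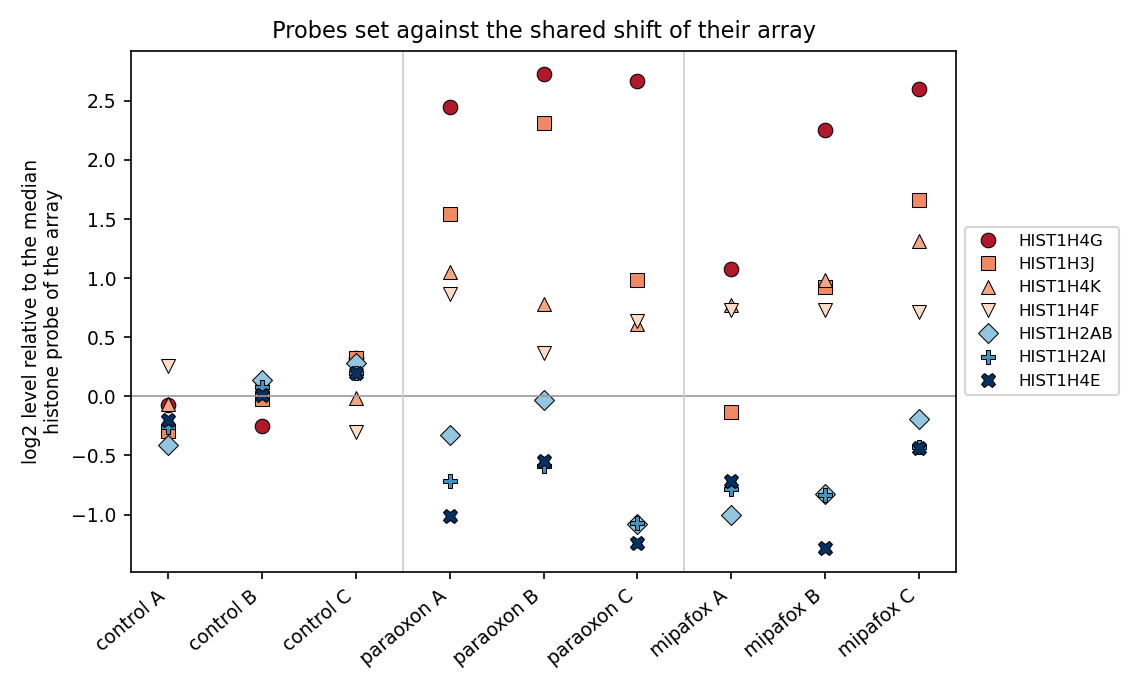
Log2 level of the 7 probes named above on each array, after subtraction of the probe's control mean and of the median deviation of all 74 histone probes on that array. HIST1H4G, HIST1H4K and HIST1H4F lie above their control values on all 6 exposed arrays and HIST1H4E and HIST1H2AI below them, while HIST1H3J on mipafox A and HIST1H2AB on paraoxon A and B and mipafox C lie among theirs.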

How the data were processed

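The authors processed 9 one-colour arrays (design 028004, annotated on hg19) with Agilent Feature Extraction 10.5.1.1 and deposited the linear intensity values of each spot, and also log2 values after their own normalization, which served here as an alternative. Their methods name Agi4x44PreProcess and limma, with normalization after the package manual. Here the log2 processed intensity of each array was centred on its 75th percentile, without control and outlier-flagged spots, and replicate spots were averaged. The 29134 probes measured well above background in a whole treatment, each with 2 or more values per treatment, entered limma 3.58.1 (R 4.3.3) with all 9 arrays and Benjamini-Hochberg adjustment. The fit was tested on simulated data. Between 65.7% and 73.6% of probes per array passed the background limit, and precision is limited by how few arrays there are.

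The members and lists were chosen with earlier results of these data known. The 22 named genes are HIST1H4E and HIST1H2AB, in each subtype those with the smallest unadjusted p (2 probes for paraoxon, 1 for mipafox) and the brightest probe, and the lists of genes with known tailed transcripts or testis expression, each by its brightest probe. For HIST2, HIST3 and HIST4 the lowest and highest gene are given besides. HIST1H3A, HIST1H3B, HIST1H3H, HIST1H4A, HIST1H4F and HIST1H4K were chosen after their values were seen. Alternatives covered normalization, background correction, filters, slide and replicate letter as blocks, variance model, array weights, thresholds and each array left out. Sequences are those of the deposited files. Figures were drawn with matplotlib 3.10.9 (Python 3.11.15).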

Additional observations from a re-analysis of the deposited data

How the results depend on the processing

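No histone probe was called in any comparison under quantile normalization, normexp background, the authors' values, other filters, slide as a fixed or random block, other variance models or any array left out. With array weights limma called 5 for paraoxon (HIST1H4E, HIST1H3B, HIST1H2AI, HIST1H3J and HIST1H4G), beside 2.3% of all probes, and 2 for mipafox (HIST1H4E and HIST1H4G), beside 2.75%. That fit gave most weight to control B, paraoxon A and mipafox B. With the covariate 3 and 0 were called (1.76% and 0.00686% of all), and at an unadjusted p under 0.05 with the fold limit 7 and 5 (2.19% and 0.844% of all). The letters A, B and C did not pair the arrays (same-letter correlations from -0.60 to 0.57), and with the replicate letter as a block the medians stayed at -0.57 for paraoxon, -0.43 for mipafox and -0.17 between them, with 0 calls. With slide as a block the medians were 0.69 for paraoxon and 0.45 for mipafox. With each array left out they ran from -1.01 to -0.16 for paraoxon, from -0.90 to 0.21 for mipafox and from -0.78 to 0.27 between them. Without scaling between arrays they were -0.67, -0.69 and -0.02, where the median of all probes stood at -0.09, -0.25 and 0.17.

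Among the 22 named genes, these log2 fold changes changed sign for paraoxon with slide as a block: HIST1H1C 0.99, HIST1H1T 0.68, HIST1H4C 0.14, HIST1H1B 0.0718, HIST1H3G 0.35, HIST1H2BD 0.89, HIST1H1D 0.14, HIST1H2BK 0.98, HIST1H2BF 0.65, HIST2H2BE 0.0021, HIST1H2AJ 0.49 and HIST1H2AC 0.71. For mipafox they were HIST1H1C 0.59, HIST1H1T 0.54, HIST3H3 0.15, HIST1H4C 0.18, HIST1H2AA 0.73, HIST1H2BD 0.50, HIST1H2BK 0.51, HIST1H2BF 0.52, HIST1H2AJ 0.27 and HIST1H2AC 0.39. With normexp, HIST3H3 was at -0.0647 for paraoxon, and HIST1H1T at 0.14 and HIST1H2AA at 0.0496 for mipafox. With array weights, HIST3H3 was at -0.0363 for paraoxon, and HIST1H2AA at 0.22 and HIST1H2BF at 0.0298 for mipafox. HIST1H4C was at 0.0223 for mipafox with the authors' values, and HIST1H2AA at 0.0602 with slide as a random block.

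With each array left out, the sign changed within these ranges for paraoxon: HIST3H3 -0.14 to 0.12, HIST1H2AA -0.76 to 1.69 and HIST2H2BE -0.68 to 0.0099. For mipafox it changed for HIST1H1C (-0.98 to 0.16), HIST1H1T (-1.005 to 0.29), HIST3H3 (-0.20 to 0.0422), HIST1H4C (-0.33 to 0.0543), HIST1H2AA (-0.60 to 0.47), HIST1H2BD (-1.11 to 0.15), HIST1H2BK (-1.22 to 0.0821), HIST1H2BF (-1.55 to 0.21), HIST2H2BE (-0.0703 to 0.46), HIST2H2BF (-0.0295 to 0.22) and HIST1H2AC (-1.46 to 0.0206). The cause was not tested. Among the tested histone probes named in the text, those of HIST1H1T and HIST4H4 were well above background on 6 and 7 of the 9 arrays and the others on all 9.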
